A study of Mus musculus with 6 samples.

Results

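The gelsolin and villin family was followed by gene symbol through RNA-sequencing of sorted mouse ileal tuft cells, and its 8 members (Avil, Vil1, Vill, Gsn, Scin, Capg, Flii and Svil) were all found among the 23420 genes of the table. Of these, 7 were listed above 0 in every library and 1, Vill, was listed at 0 in every library. The study asked how a taste receptor shapes tuft cells, the chemosensory cells of the gut epithelium, and sequenced RNA from 6 libraries of 1 group. All came from mice labelled as strain C57BL/6 (C57BL/6J in the titles) and genotype Gfi1b-eGFP, described in the methods as Gfi1b eGFP/+. Green fluorescent protein is made there from the locus of Gfi1b, a transcription factor gene that marks tuft cells within the epithelium, and also blood cells, which the sort for EpCam-positive, CD45-negative and propidium iodide-negative cells was set to leave out. No treatment was labelled. Mice of the study were 6 to 12 weeks old, with no age given per library, and the number of cells per library was not stated. Every library was labelled as a separate mouse replicate. The paper's figure caption counts 6 independent samples for the sequencing, without saying whether each was 1 mouse. Beyond these statements nothing ties a library to an animal, so the p-values below measure the spread between these 6 libraries.

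Proteins of this family are built from repeats of the gelsolin domain, which binds actin and, in most members, responds to calcium. Gelsolin and adseverin sever and cap actin filaments, the macrophage capping protein caps them without severing, and villin can also bundle them through an added carboxy-terminal domain, the headpiece. Villin is a main bundling protein of the microvilli of the intestinal brush border, and advillin, its close relative, is known as a marker of tuft cells, which carry a tuft of long, stiff microvilli with deep actin rootlets.

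The ends of the coding sequences of Avil, Vil1 and Vill are shown because this is the stretch that encodes most of the headpiece, the feature that sets these 3 genes apart from Gsn, Scin and Capg. Each line holds the last 180 coding bases, stop codon included, on the plus strand of GRCm38, over 2 exons of the main transcript in GENCODE M21. Capitals mark the bases that are identical in all 3 genes. The genomic spans, introns included, are chr10:127018446-127020563 for Avil, chr1:74432366-74434991 for Vil1 and chr9:119070749-119071247 for Vill.
Avil: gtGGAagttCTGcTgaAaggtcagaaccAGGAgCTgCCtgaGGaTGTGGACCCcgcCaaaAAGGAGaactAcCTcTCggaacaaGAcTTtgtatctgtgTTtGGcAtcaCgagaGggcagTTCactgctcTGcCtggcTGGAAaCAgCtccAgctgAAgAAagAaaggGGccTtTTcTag
Vil1: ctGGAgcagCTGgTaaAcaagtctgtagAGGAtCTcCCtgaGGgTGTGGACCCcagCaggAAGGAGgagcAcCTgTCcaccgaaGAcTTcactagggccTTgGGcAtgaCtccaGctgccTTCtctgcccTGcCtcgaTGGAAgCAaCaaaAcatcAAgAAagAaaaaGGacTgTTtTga
Vill: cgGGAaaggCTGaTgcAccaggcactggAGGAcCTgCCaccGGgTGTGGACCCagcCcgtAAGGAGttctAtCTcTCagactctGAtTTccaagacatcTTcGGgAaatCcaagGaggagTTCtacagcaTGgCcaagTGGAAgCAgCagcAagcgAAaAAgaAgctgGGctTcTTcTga
Of these 180 positions, 76 (42.2%) held the same base in all 3 genes. Avil and Vil1 shared 108 (60%), Avil and Vill 98 (54.4%), and Vil1 and Vill 96 (53.3%). Over the whole coding sequence Avil matched Vil1 at 65.6% of 2451 aligned bases, Vill at 63.3% and Gsn at 62.4%. Gsn and Scin matched each other at 65.3%. The longest run of bases that Avil and Vil1 held in common was 32 bases, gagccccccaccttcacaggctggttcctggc, at coding positions 2098 to 2129 of Avil and 2107 to 2138 of Vil1. It is shown because stretches of this kind are where short reads of both genes could be mixed. Of the 3009 stretches of 25 bases in the Avil transcript, 9 also occurred in Vil1, which is 0.299% of them.

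Expression was deposited as TPM, the share of a gene among all transcripts, scaled to a sum of 1000000 and corrected for transcript length, so that levels of different genes can be compared within a library. The labels also name a 3' polyA and a droplet preparation for every library, beside the full-length one of the methods, and for reads from transcript ends alone such a correction would not make genes of different length comparable. TPM keeps no read number, and the depth of the libraries is unknown. In every library the family was carried by advillin and villin. The 8 members together reached 1340 ± 256 TPM (SD, n = 6), from 1087 to 1689. Avil made up 43.1% ± 4.13 of that sum (SD, n = 6; 38.2% to 48.4%) and Vil1 43.2% ± 3.78 (SD, n = 6; 38.5% to 47.8%). Together they took 86.2% ± 0.698 (SD, n = 6), between 85.1% and 87.0%. Flii followed with 5.68%, Capg with 3.49%, Gsn with 2.05%, Svil with 1.37% and Scin with 1.17% on average.

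**Figure D1:**
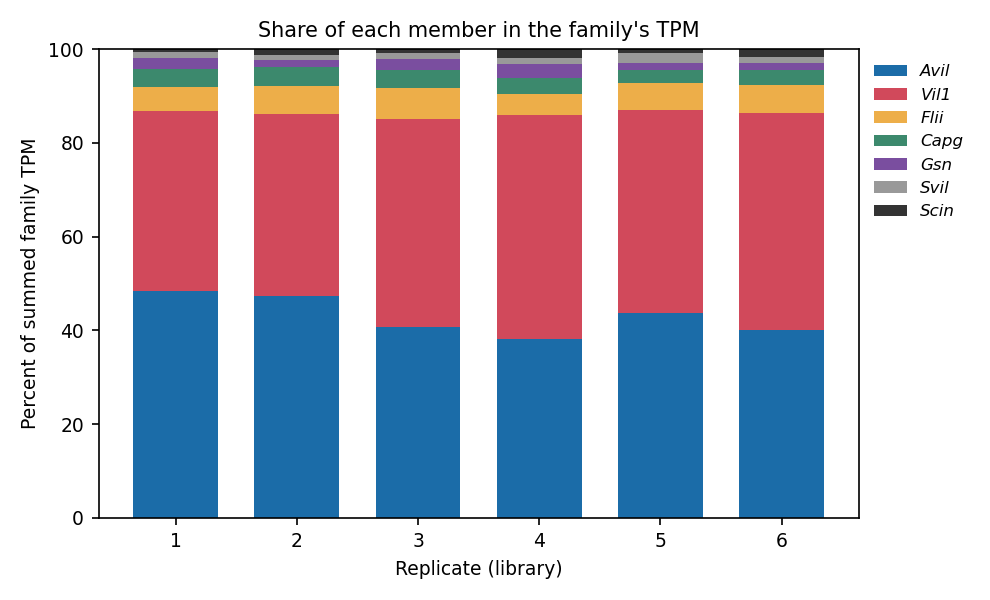
Stacked bars give the percent of the summed family TPM that each member took in each of the 6 libraries, with Vill, listed at 0, left out. Avil (bottom) and Vil1 (above it) fill 85.1% to 87.0% of every bar, and their order changes between libraries.

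Avil lies at chr10:127000709-127020994 on the plus strand (ENSMUSG00000025432.11), with 20 exons, a main transcript of 3033 bases and a coding sequence of 2460 bases. Its level in replicates 1 to 6 was 818, 768, 486, 499.9, 499 and 435 TPM, which averages to 584 ± 164 (SD, n = 6). Replicates 1 and 2 stood above the other 4, among which values differed by little, and the highest library held 1.88 times the level of the lowest. In these libraries Avil ranked between 134 and 266 of all 23420 genes by TPM.

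Vil1 lies at chr1:74409376-74435559 on the plus strand (ENSMUSG00000026175.12), also with 20 exons, and has a main transcript of 3124 bases. Its level in replicates 1 to 6 was 649.7, 633, 528, 626, 494 and 503 TPM, which averages to 572 ± 71.3 (SD, n = 6). Replicates 1, 2 and 4 were the high ones and 3, 5 and 6 the low ones, with a highest to lowest ratio of 1.31. Among the 6937 genes above 0 in every library with a mean of at least 10 TPM, only 2.74% had a smaller SD of log2(TPM + 1) than Vil1, at 0.181. Avil, at 0.382, was near the median of those genes, 0.441. The ranks of Vil1 ran from 177 to 250.

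Within libraries, advillin and villin could not be put in an order. Avil exceeded Vil1 in replicates 1, 2 and 5, with TPM ratios of 1.26, 1.21 and 1.01, and was below it in replicates 3, 4 and 6, with ratios of 0.920, 0.799 and 0.866. On the log2(TPM + 1) scale the difference was -0.00469 ± 0.264 (SD, n = 6; p = 1 and adjusted p = 1 over 7 comparisons in a two-sided exact permutation test that flips signs within libraries, called the sign-flip test below). The exact 96.9% interval of the difference, which is its range over the libraries, ran from -0.32 to 0.33, so a difference of this size in either direction is within what the 6 libraries allow. Replicates 1 to 3 alone gave a difference of 0.16 ± 0.25, and replicates 4 to 6 gave -0.17 ± 0.17 (SD, n = 3 each). These sets were noticed in the data, since the gene Gm20594 was at 15588 to 21283 TPM in the first set and 51804 to 56441 TPM in the second, and with 3 libraries the exact permutation test cannot go below p = 0.25.

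**Figure D2:**
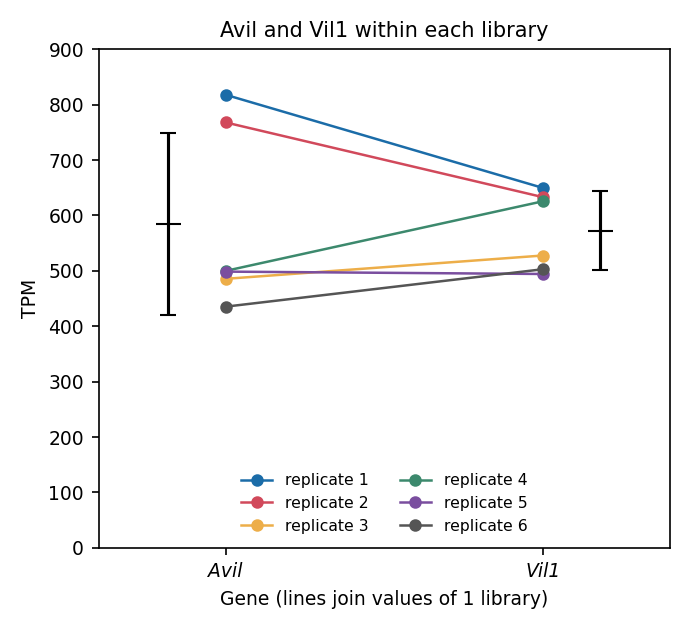
TPM of Avil and Vil1 in each of the 6 libraries, with a line joining the values of 1 library and black bars for the mean ± SD. The lines cross: Avil is the higher gene in replicates 1, 2 and 5 and Vil1 in replicates 3, 4 and 6, and Avil spreads from 435 to 818 TPM against 494 to 649.7 for Vil1.

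Some of the reads at both loci could belong to neighbours. Avil shares 165 exonic bases with Tsfm, the mitochondrial elongation factor Ts gene on the opposite strand, and Vil1 shares 49 with Usp37, a deubiquitinase gene that is also on the opposite strand. The full-length preparation of the methods does not keep the strand and their alignment options set none. Read pairs that lie wholly within these overlaps therefore cannot be told apart. Tsfm was at 8.83 to 44.4 TPM and Usp37 at 13.8 to 26.2 TPM, far below Avil and Vil1 in every library.

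Villin-like, the third headpiece gene shown above, was not detected. Vill lies at chr9:119052778-119071525 on the plus strand (ENSMUSG00000038775.14), with 20 exons and a main transcript of 2909 bases, and was listed at 0 in all 6 libraries, as were 7713 genes of the table (32.9%). None of the 2885 stretches of 25 bases in its transcript occurs in another gene of the annotation. Since the depth is unknown, the 0 carries no upper limit. No fold of Avil over Vill is given for the same reason.

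The remaining members formed a descending series well below advillin and villin. Flii encodes flightless I, a gelsolin-repeat protein with leucine-rich repeats that is also known as a coactivator of nuclear receptors (chr11:60714123-60727263, minus strand, ENSMUSG00000002812.4, 30 exons). It was at 85.7, 96.3, 79.7, 58.2, 66.35 and 66.37 TPM in the order of the replicates, and averaged 75.4 ± 14.3 (SD, n = 6). Replicates 1 to 3 were all above replicates 4 to 6. Llgl1, a cell polarity gene on the opposite strand that shares 64 exonic bases with Flii, was at 6.66 to 12.1 TPM. Avil exceeded Flii by 6.09 to 9.54 times in TPM (median 7.74).

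Capg encodes the macrophage capping protein (chr6:72544391-72562983, plus strand, ENSMUSG00000056737.14, 10 exons). It was at 64.6, 63.9, 46.6, 44.65, 31.2 and 34.1 TPM, averaging 47.5 ± 14.2 (SD, n = 6). Replicates 1 and 2 were the highest, as for Avil, and replicates 5 and 6 the lowest. Avil exceeded Capg by 10.4 to 16.0 times (median 12.3). Of its 1223 stretches of 25 bases, 53 (4.33%) also occur in 1 other gene. Since Capg is known from macrophages, leukocyte transcripts are given beside it. The 13 listed leukocyte markers summed to 154 to 312 TPM and were led by Ptprc (the CD45 gene, 74.2 to 171 TPM), the granzyme gene Gzma (10.4 to 158 TPM) and the integrin gene Itgam (10.96 to 20.7 TPM). Ptprc was highest in replicates 1 and 2 and lowest in 5 and 6, as Capg was, whereas Gzma was highest in replicates 5 and 6 and Itgam in replicate 3. The remaining myeloid markers of the list, named after their values were seen, were Lyz2 (0.91 to 9.06 TPM), Cd68 (0.94 to 4.78 TPM), Csf1r (0 to 4.36 TPM) and Itgax (0 to 1.82 TPM), and all were below Capg in every library. How much of Capg came from such cells was not tested.

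Gsn encodes gelsolin itself, the calcium-activated severing protein (chr2:35256380-35307892, plus strand, ENSMUSG00000026879.14, 17 exons). It was at 40.7, 24.2, 27.0, 39.9, 17.6 and 17.05 TPM, averaging 27.7 ± 10.5 (SD, n = 6). Replicates 1 and 4 were the high ones, and 5 and 6 the low ones. No stretch of 25 bases in its transcript is shared with another gene. Gelsolin is abundant in connective tissue and smooth muscle. The 7 fibroblast markers summed to between 0.75 and 6.03 TPM in 5 libraries and to 64.3 TPM in replicate 5, where Dcn, which encodes the matrix proteoglycan decorin, was at 59.4 TPM and was at 0 in all others. Gsn was near its lowest in replicate 5. In the other 5 libraries the fibroblast sum was Pdgfrb alone, which encodes a growth factor receptor of stromal cells, and was highest in replicates 1 and 4 (6.03 and 3.67 TPM), the same libraries that were highest in Gsn. Col1a2 and Lum were at 0 in every library. The 6 smooth muscle markers summed to at most 3.83 TPM, with Myh11, Des and Cnn1 at 0 in every library. How much of Gsn came from such cells was not tested.

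Svil encodes supervillin, a membrane-linked protein with a villin-type headpiece that binds actin and myosin II. It was at 20.7, 18.4, 15.9, 16.0, 24.6 and 12.55 TPM, averaging 18.01 ± 4.21 (SD, n = 6). It was highest in replicate 5, the library with the high fibroblast sum, and lowest in replicate 6, a relation that was not tested. Without replicate 5 its mean was 16.7 TPM.

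Scin encodes adseverin, also called scinderin, a severing protein known from secretory cells (chr12:40059769-40134228, minus strand, ENSMUSG00000002565.16, 16 exons). It was at 10.0, 19.9, 8.62, 25.8, 8.96 and 18.9 TPM, averaging 15.4 ± 7.18 (SD, n = 6). Replicates 2, 4 and 6 were high, and 1, 3 and 5 were low, an arrangement that no other member followed. Of its 2971 stretches of 25 bases, 94 (3.16%) also occur in other genes, 270 in number. Read pairs that lie wholly within those stretches could also come from those genes.

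**Figure D3:**
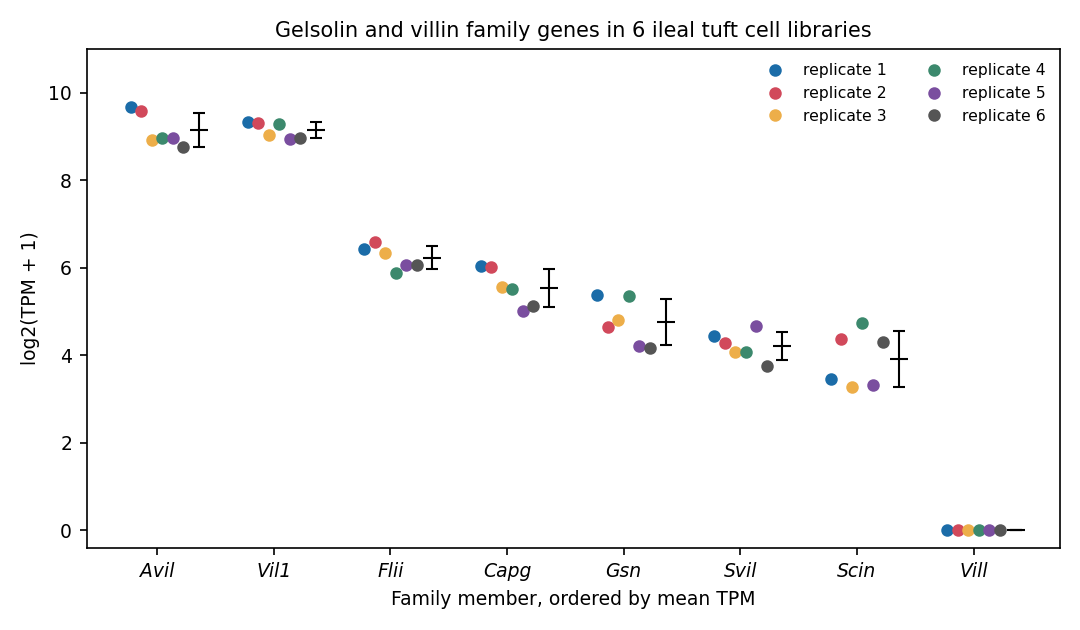
Levels of the 8 members on the log2(TPM + 1) scale, ordered by mean TPM, with 1 colored point per library and black bars for the mean ± SD over 6 libraries. Avil and Vil1 sit together at a mean of 9.15 each, Flii to Scin descend from 6.24 to 3.91, and Vill lies at 0 in every library.

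Set against the 6 other detected members within each library, Avil was higher than 5 and not separable from Vil1. The mean difference in log2(TPM + 1) was 2.91 ± 0.241 for Flii, 3.60 ± 0.206 for Capg, 4.38 ± 0.479 for Gsn, 4.93 ± 0.365 for Svil and 5.23 ± 0.767 for Scin (SD, n = 6 each). Each of these held its sign in 6 of 6 libraries and gave p = 0.03125 in the exact sign-flip permutation test, the smallest that 6 libraries allow, with an adjusted p of 0.0365. The test with Vill gave the same p, an outcome that its 0 in every library fixes. Within replicates 1 to 3 and within replicates 4 to 6 the sign was the same in every library, and the largest shift was that of Scin, from 5.69 to 4.78. Most genes of the table lie below genes as abundant as these. Tested in the same way over all other genes, 98.7% of 23419 were below Avil and 0.465% (109 genes) above it, and among the 11046 genes above 0 in every library 97.3% were below it. The 6 of 7 members below Avil, Vill included (85.7%), do not exceed that background. Against Vil1, 98.8% of genes were below and 0.521% (122 genes) above, 97.4% of those above 0 in every library were below, and again 6 of 7 members were below and none was above.

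**Figure D4:**
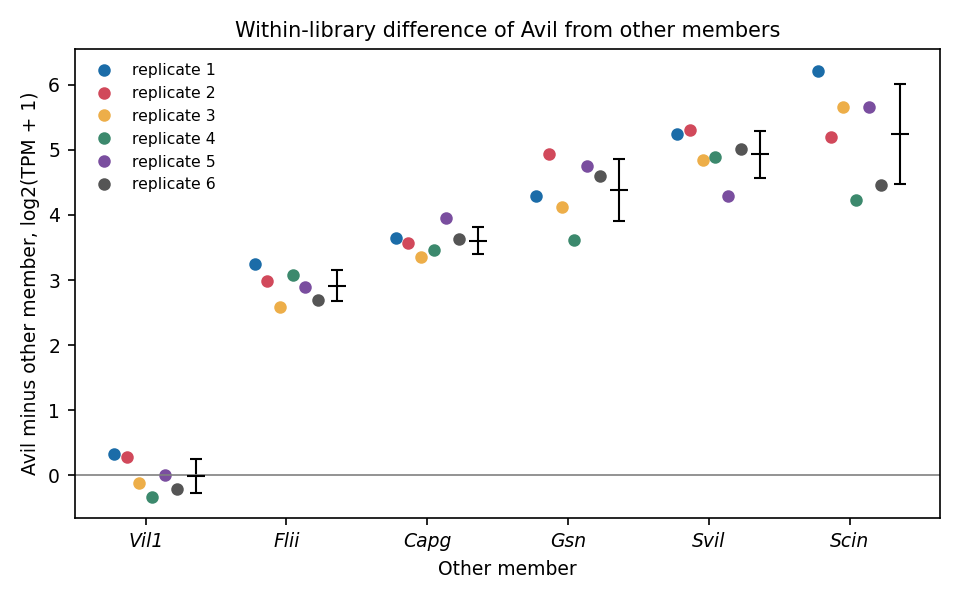
Difference between Avil and each other member within a library, in log2(TPM + 1), with 1 colored point per library and black bars for the mean ± SD; Vill, listed at 0, is left out. The points for Vil1 straddle 0, from -0.32 to 0.33, and all points for the other 5 members lie above 2.59.

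The order of the whole family was then examined over its 28 pairs. The difference passed an adjusted p of 0.05 for 24 pairs, of which 7 are with Vill, whose 0 in every library fixes the outcome. Between detected members 17 of 21 pairs passed, and 3 of the 6 pairs of neighbours in the order. These are the pairs with the same order in 6 of 6 libraries, which 68.5% of all pairs of genes above 0 in every library also had, so nothing particular to the family is read from the count. Flii exceeded Capg by 0.688 ± 0.283 and Capg exceeded Gsn by 0.783 ± 0.394 on the log2(TPM + 1) scale, each in 6 of 6 libraries (SD, n = 6; exact sign-flip test, p = 0.03125, adjusted p = 0.0365 over 28 pairs). No pair among Gsn, Svil and Scin, the 3 least abundant detected members, passed that threshold. Gsn was above Svil by 0.545 ± 0.596 in 5 of 6 libraries (exact permutation p = 0.125, adjusted p = 0.135) and above Scin by 0.850 ± 0.774 in 5 of 6 (exact permutation p = 0.0625, adjusted p = 0.0700). Svil was above Scin by 0.305 ± 0.854, in 3 of 6 libraries (exact permutation p = 0.375, adjusted p = 0.389).

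The identity of the sorted cells was checked with marker lists. All 17 tuft cell markers found in the table were above 0 in every library, summed to 8565 to 14547 TPM, and had the ion channel gene Trpm5 and the leukotriene pathway gene Alox5ap among their most abundant. Dclk1, the usual tuft cell marker, was at 511 to 821 TPM, and neither Avil nor Vil1 could be told apart from it. Markers of other epithelial cells were present too. The 15 enterocyte markers summed to 7991 to 16749 TPM, led by Fabp1 (4226 to 12794 TPM, up to 77.4% of that sum), Fabp6 and Apoa1. Paneth cell markers (Defa24, Defa17 and Lyz1 the most abundant) summed to 3563 to 21421 TPM, and goblet cell markers (Zg16, Tff3 and Spink4) to 1053 to 5118 TPM. Enteroendocrine markers (Sct, Gcg and Chgb) summed to 378 to 539 TPM, of which Sct took up to 96.2%. Of the 9 genes in that list only 4 were above 0 in every library. Gcg ranged from 0 to 45.7 TPM and Chgb from 0.08 to 59.6 TPM, so enteroendocrine cells are not read from that sum. Villin is made by enterocytes as well as by tuft cells. In bulk RNA, fewer cells of a type and less RNA per cell cannot be told apart.

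The levels of Avil and Vil1 were therefore compared with these lists across libraries, as the median log2(TPM + 1) of each list. Avil was higher in libraries with higher tuft cell markers (r = 0.930 by Pearson's measure, exact permutation p = 0.00139, adjusted p = 0.00556 over 4 relations; Spearman rho = 1.00, exact permutation p = 0.00278, adjusted p = 0.0111; n = 6), and these are the smallest p-values that 720 pairings allow. The size of r rests on replicates 1 and 2. Without them r was 0.616 over 4 libraries, whose ranks still matched. Vil1 also followed these markers by Pearson's measure (r = 0.940, exact permutation p = 0.0222, adjusted p = 0.0444; n = 6), but not by rank (rho = 0.829, exact permutation p = 0.0583, adjusted p = 0.117), and r was 0.950 without replicates 1 and 2. Both relations lost their call when libraries were rescaled by median-of-ratios factors (r = 0.878 and 0.867, exact permutation adjusted p = 0.0639 each). Centred within the sets of replicates 1 to 3 and 4 to 6, r was 0.919 for Avil and 0.922 for Vil1 (exact permutation over 36 pairings, adjusted p = 0.111 each).

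No relation with the enterocyte list passed the test. For Avil r was -0.160 (exact permutation p = 0.692, adjusted p = 0.692) with a rho of -0.0857 (exact permutation p = 0.919, adjusted p = 0.919), and for Vil1 r was 0.292 (exact permutation p = 0.611, adjusted p = 0.692) with a rho of -0.371 (exact permutation p = 0.497, adjusted p = 0.663), each with n = 6. These values turned on replicates 3 and 4, the lowest and highest in that list, without which r was -0.981 for Avil and -0.999 for Vil1 over 4 libraries. In those 4 the list's median gene was at 53.2 and 53.5 TPM in replicates 1 and 2, and at 60.3 and 60.2 TPM in replicates 5 and 6. That r thus mainly sets replicates 1 and 2 against 5 and 6, over a narrow range of the list. Centred within sets, r was 0.646 for Avil and 0.988 for Vil1 (exact permutation, adjusted p = 0.111 each). For Vil1, r was 0.723 with median-of-ratios factors and 0.485 without Rn45s (exact permutation, adjusted p = 0.135 and 0.456). With 6 libraries the sign of the relation to enterocyte transcripts was not settled.

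Genes that kept the most constant ratio to Avil over the 6 libraries were Krt18, Tor1aip1, Glb1, Tapbp and Cap1. The measure was the SD of the log2 ratio of TPM, over 6936 genes above 0 in every library with a mean of at least 10 TPM, and is a description with no test. Krt18, a keratin of simple epithelia, was at 23.5 to 25.6 times the level of Avil (SD 0.0482), from 11156 to 19664 TPM. Glb1 encodes lysosomal beta-galactosidase (SD 0.0605), Tapbp the peptide-loading protein tapasin (SD 0.0656) and Cap1 an actin filament disassembly protein (SD 0.0767). Gfi1b, whose locus the sort itself reads, was at rank 9 (SD 0.0864). Of the 17 tuft cell markers, 11 were among the 693 genes ranked first (median rank 416), and of the 14 ranked enterocyte markers 0 were (median rank 5482). Fabp1 was the closest of these (rank 1068, SD 0.320), ahead of some tuft cell markers such as Rgs13 (rank 1163), and like Avil was highest in replicates 1 and 2. Within the family, Capg was closest to Avil (rank 268, SD 0.211), followed by Flii (435), Vil1 (577), Svil (1595), Gsn (3019) and Scin (5701).

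The corresponding genes for Vil1 were others. Its most constant ratios were with Bptf (a chromatin remodeling subunit, SD 0.0598), Pde4dip (SD 0.0598), Csk (the kinase that restrains Src family kinases, SD 0.0669), Rere (SD 0.0681) and Oas3 (SD 0.0737). Of the tuft cell markers, 8 of 17 were among the first 693 (median rank 708), with Rgs13 at rank 82 and Dclk1 at rank 152, and again 0 of 14 enterocyte markers (median rank 4908.5). Flii was at rank 837, Avil at 923 and Capg at 1263, and Scin was again the farthest member, at rank 5162. The points of these comparisons share their libraries. Rn45s, the ribosomal RNA precursor gene, took 23.1% to 32.6% of the TPM and lowers all other genes together. Its share cancels in these ratios of TPM, but not in the relations to the marker lists. Rescaled without Rn45s, r with the tuft cell list was 0.913 for Avil and 0.926 for Vil1 (exact permutation, adjusted p = 0.0333 each).

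The other genes of the actin machinery, 58 in 7 lists, place the family's levels. Of these, 50 were below Avil, 4 above and 4 neither, in the test whose background is 98.7% below and 0.465% above. Against Vil1 the counts were the same, though not all of the genes were. The median difference from Avil was -5.50 in log2(TPM + 1) over the 58 genes, against -8.24 over all genes. Of 6 actins, 2 were above both members and 4 below, with Actb (the beta-actin gene) at 3748 to 6117 TPM and Actg1 (gamma-actin) at 2039 to 2957 TPM, while Acta1, the skeletal muscle actin gene, was at 30.8 to 193 TPM and the other 3 actins were near 0.

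The profilin gene Pfn1, whose product binds actin monomers, was above Avil at 768 to 1254 TPM. The thymosin gene Tmsb4x, which encodes a monomer-sequestering peptide, was at 509 to 635 TPM and not separable from Avil or Vil1, and Tmsb10 was at 203 to 464 TPM. Among 15 bundling and crosslinking genes, Espn was the only one above Avil. It encodes espin, a bundling protein of microvilli and stereocilia, and was at 565 to 1108 TPM, above Avil in the test and neither above nor below Vil1. Actn4 (alpha-actinin, 198 to 267 TPM) and Pls1 (the intestinal plastin of the brush border, 93.0 to 151 TPM) followed, and Fscn1, Fscn3, Actn3 and Flnc were at 0 in every library.

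Genes that act on filament ends and on disassembly, as the family's own proteins do, held a few members as abundant as Avil. Of 15 capping genes 14 were below it, no more than the 98.7% of all genes, and Eps8l3, a relative of the microvillar capping protein Eps8, was at 482 to 964 TPM and not separable. Capzb, a subunit of the general capping protein, was at 216 to 393 TPM, and Eps8l2 at 92.8 to 153 TPM, both above every other member of the family than Avil and Vil1 in mean TPM. Of 8 severing and disassembly genes, 6 were below Avil. The genes of the actin-depolymerizing proteins, Dstn (destrin, 551 to 877 TPM) and Cfl1 (cofilin, 381 to 673 TPM), were not separable from it. Dstn was above Vil1, and Wdr1, a cofilin cofactor, was at 199 to 316 TPM.

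The listed headpiece genes outside the family, 4 of 4, were below Avil, as were 98.7% of all genes, and summed to 10.6 to 23.1 TPM. Ablim1 led them at 4.14 to 11.8 TPM. Svil, the other headpiece gene of the family that was detected, had a range of 12.55 to 24.6 TPM. The 2 known partners of flightless I, Lrrfip2 (11.9 to 33.6 TPM) and Lrrfip1 (11.5 to 26.9 TPM), were below Flii in every library.

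**Figure D5:**
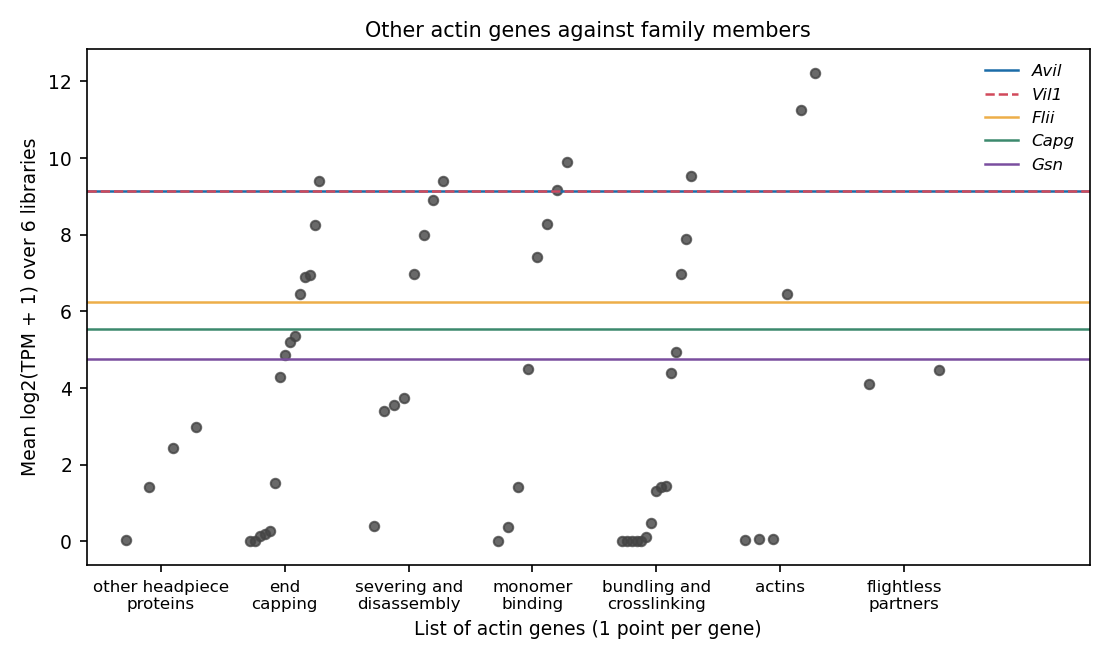
Mean log2(TPM + 1) over 6 libraries of 58 other actin genes, 1 point per gene, in 7 lists, with horizontal lines for Avil, Vil1, Flii, Capg and Gsn. The lines of Avil and Vil1 coincide at 9.15, and few points lie above them, among them Actb, Actg1, Pfn1 and Espn.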

How the data were processed

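Per the methods and the labels, RNA from sorted ileal tuft cells was amplified along its whole length by a modified SMART-Seq2 protocol for 18 cycles. The labels also name a 3' polyA and a droplet preparation for every library. The authors aligned paired-end reads to the UCSC mm10 transcriptome with Bowtie, with 1 mismatch and up to 15 alignments allowed for a read, and deposited TPM values from RSEM v1.2.3, which divides reads with several alignments between genes by estimated shares. The submitters' processing notes also name TopHat and DESeq2, which were not used here. TPM sums to 1000000 per library and keeps no depth, so neither a count model nor counting intervals nor detection limits could be used. Libraries listed 13044 to 13308 genes above 0.

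Levels were compared within libraries on the log2(TPM + 1) scale by an exact permutation test, two-sided, that flips the signs of the differences in all 64 ways, with Benjamini-Hochberg adjustment over 7 comparisons with Avil, over 28 pairs, or over all other genes. The methods name the Mann-Whitney test, which ignores the library and was an alternative. Correlations used exact permutation over 720 pairings, adjusted over 4 relations. The genes named were the members, genes that share exonic bases with one, the 3 most abundant genes of each list, list genes at 0 in every library, the 5 genes with the most constant ratio to Avil or Vil1, and Rn45s. Other genes of the lists were named where the test or the ranking placed them, and Lyz2, Cd68, Csf1r, Itgax and Gm20594 after their values were seen. The members, lists and tests were chosen with earlier results of these data known. Of the 18 tuft cell markers Sh2d6 was not found, Siglecf was matched as Siglec5, and Dmtn as Epb4.9. Positions, coding sequences and stretches of 25 bases come from GENCODE M21 on GRCm38, which is the mm10 assembly but not the authors' gene models, and coding sequences were aligned pairwise. The sign-flip test, the ranking by constant ratio and the median-of-ratios factors were checked on simulated data, and the other tests were not. Software was biopython 1.88, matplotlib 3.10.9, scipy 1.17.1, pandas 2.3.3 and numpy 2.4.6 under Python 3.11.15. Some listed genes are not reported here by name, and the study's other experiments were not analysed here.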

Additional observations from a re-analysis of the deposited data

Results flagged for a closer look

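In groups of 6 libraries, a library was singled out where its gap to the nearest of the others as a share of the whole range exceeded Dixon's 95% critical value. Of 32 measures screened, 2 passed, where chance gives about 1 in 20, or 1.6. The summed TPM of the 7 fibroblast markers was 64.27 in replicate 5, against 6.03 in the next library, almost all of it from Dcn. The summed TPM of the 4 headpiece genes outside the family was 23.14 in replicate 2, against 14.55 in the next library, with Ablim1 at 11.8 TPM there. No level of a family member, and no difference between Avil and another member, was singled out in this way.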

How the results depend on the processing

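The signs and calls of Avil against Flii, Capg, Gsn, Svil, Scin and Vill (at 0 throughout), the absent call against Vil1 and the number of pairs that passed, 24 of 28, were the same with pseudocounts of 0.1 and 0.01, values under 0.1 TPM set to 0, median-of-ratios factors, rescaling without Rn45s and an exact Mann-Whitney test, over which adjusted p ran from 0.00253 to 0.0365 for the 6 and from 0.589 to 1 for Vil1. The size of the difference from Vill is set by the pseudocount (9.15, 12.5 and 15.8 with 1, 0.1 and 0.01), since Vill is listed at 0. The relations to the marker lists moved. By median-of-ratios factors r with the tuft cell list was 0.878 (Avil) and 0.867 (Vil1), past the threshold in neither case (adjusted p = 0.0639, exact permutation), and with the list's mean in place of its median 0.909 and 0.896 (adjusted p = 0.075). Without Rn45s these values were 0.913 and 0.926, both past the threshold (adjusted p = 0.0333 each, exact permutation). The next alternative was chosen after seeing the data: centred within replicates 1 to 3 and 4 to 6, they were 0.919 and 0.922 (adjusted p = 0.111), and r of Avil with the enterocyte list turned from -0.160 to 0.646. For Vil1, r with that list was 0.723 by median-of-ratios factors and 0.485 without Rn45s, against 0.292, with no call. Without replicate 4, r with the enterocyte list turned to 0.0690 for Avil and to -0.0504 for Vil1. The causes were not tested. Rescaling without Rn45s raised every other gene above 0 by 0.38 to 0.57 on the log2 scale, to means of 801 TPM for Avil, 787 for Vil1, 104 for Flii, 64.9 for Capg and 24.9 for Svil. Leaving out each library in turn gave differences from Avil of -0.07 to 0.06 (Vil1), 2.85 to 2.98 (Flii), 3.53 to 3.65 (Capg), 4.27 to 4.54 (Gsn), 4.85 to 5.06 (Svil) and 5.04 to 5.44 (Scin), a share of Avil of 42.0% to 44.0%, and Avil as the most abundant member in 2 or 3 libraries. It gave r with the tuft cell list of 0.868 to 0.990 (Avil) and 0.922 to 0.974 (Vil1), and with the enterocyte list of -0.491 to 0.0690 (Avil) and -0.0504 to 0.427 (Vil1), with no test. No paired analysis was possible because the libraries form 1 group; genes, not samples, are paired within libraries in the main test. Levels near 0 are limited by a depth that is unknown.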
